A study of Mus musculus with 6 samples.

Results

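Cipc and 9 core genes of the circadian clock were followed in LECs, the endothelial cells of lymphatic vessels. The members are Cipc, Clock, Bmal1 (named Arntl in the platform annotation), Per1, Per2, Per3, Cry1, Cry2, Nr1d1 and Dbp. All 24 probe sets to which the annotation gives the single symbol of a member were taken, out of 45037 non-control probe sets and 18193 named genes. The genes were picked knowing how they differ between the groups compared here, Cipc above all, so their differences are described and carry no test of their own. Of the 6 arrays, 3 held tumour-associated LECs, taken from xenografts of MDA-MB-435 in mice 8 weeks after the human cancer cells were injected under the skin, and 3 held LECs that came from mammary skin, a healthy tissue, of balb-c/nude mice. MDA-MB-435 has served as a model of breast cancer, though it derives from a melanoma. Cells in both tissues were found by a short LYVE-1 stain and cut out by laser capture microdissection, and their RNA went through 1 round of Ribo-SPIA amplification. The mouse strain that carried the tumours, the age and sex of the animals, the number of animals per sample and the hour of day at which tissue was taken are not stated in the labels. Nude mice lack a working thymus and most T cells. The labels call the arrays of each group biological replicates but tie none to an animal of its own, so p-values measure the spread between these samples.

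The circadian clock is a transcriptional loop that runs in nearly every mammalian cell. CLOCK and BMAL1 bind E-box motifs as a pair and switch on the Per and Cry genes, Nr1d1 and Dbp; PER and CRY proteins then block CLOCK and BMAL1, and NR1D1 shuts off Bmal1 through ROR elements. CIPC is a further inhibitor that binds CLOCK, and DBP carries the rhythm to genes with D-box motifs. In mouse skin the epidermis and the vessels both hold clocks, and the clock of lymphatic endothelium is known for timing the entry of leukocytes into lymphatic vessels.

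The promoters below belong to Cipc, Dbp and Per3, the members with the largest negative differences on a probe set, and to Per1, whose groups had nearly equal means. They are RefSeq windows of build GRCm38.p6, 250 bases before to 50 after a start site, written 5′ to 3′ on the gene's strand, with motif matches in capitals. The windows are chr12:86947093-86947392 (plus strand), chr7:45704997-45705296 (plus), chr4:151044616-151044915 (minus) and chr11:69098699-69098998 (plus), in the order shown.
Cipc: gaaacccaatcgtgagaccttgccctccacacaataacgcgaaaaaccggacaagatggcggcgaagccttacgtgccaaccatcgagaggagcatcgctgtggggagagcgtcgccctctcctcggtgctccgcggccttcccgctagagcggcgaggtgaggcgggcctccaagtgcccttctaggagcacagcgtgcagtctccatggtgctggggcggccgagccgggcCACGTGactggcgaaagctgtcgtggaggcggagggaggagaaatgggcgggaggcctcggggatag
Dbp: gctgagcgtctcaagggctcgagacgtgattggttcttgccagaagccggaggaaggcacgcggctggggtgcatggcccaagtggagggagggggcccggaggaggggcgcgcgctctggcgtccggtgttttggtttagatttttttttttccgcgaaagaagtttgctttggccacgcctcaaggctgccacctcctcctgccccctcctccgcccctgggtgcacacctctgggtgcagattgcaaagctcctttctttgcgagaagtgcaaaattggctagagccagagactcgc
Per3: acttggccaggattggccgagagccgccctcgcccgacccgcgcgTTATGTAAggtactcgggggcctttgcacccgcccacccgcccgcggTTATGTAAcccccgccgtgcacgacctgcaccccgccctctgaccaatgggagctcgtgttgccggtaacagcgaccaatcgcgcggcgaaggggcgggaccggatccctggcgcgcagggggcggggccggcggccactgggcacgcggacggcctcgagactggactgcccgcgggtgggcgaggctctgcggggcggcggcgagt
Per1: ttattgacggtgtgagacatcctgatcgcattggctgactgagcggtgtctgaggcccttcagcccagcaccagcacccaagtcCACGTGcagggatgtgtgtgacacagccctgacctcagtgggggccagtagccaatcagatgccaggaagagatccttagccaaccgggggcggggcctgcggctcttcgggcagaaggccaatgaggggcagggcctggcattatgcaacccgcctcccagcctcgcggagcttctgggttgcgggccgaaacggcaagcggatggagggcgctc
The search covered both strands for the E-box CACGTG, the D-box TTATGTAA or TTACGTAA, and the ROR element core TAGGTCA or TGGGTCA, and no matches overlapped. Cipc has an E-box that begins at base -17 from the start site, Per1 has an E-box at -166, and Per3 has 2 D-boxes at -205 and -158. None of these letters lie in the Dbp window, nor in the second windows of Cipc and Per1, which are not shown. Among the 9 members with a window (14 windows in all), 3 held the E-box (Cipc, Per1 and Cry1), 1 the D-box and 1 the ROR core (Bmal1, in its second window). Per2 had no window and was not searched. Counted per gene in the same way, 8.09% of all 27025 genes with a window held the E-box, 1.23% the D-box and 7.35% the ROR core. Per window, over all 32851 of this length, the shares were 7.15%, 1.06% and 6.45% in that order, and 0.0244% held 2 or more D-boxes. A match describes letters and is not evidence of binding.

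Each array gave a normalised signal per probe set, given here on the log2 scale. The background of an array, set at the 95th percentile over 27 bacterial controls, lay between 3.42 and 3.91 in tumour samples and between 2.96 and 3.81 in healthy skin. Of the probe sets tested, 39.6% to 48.4% were above it in tumour samples and 41.7% to 56.0% in healthy skin. The LEC marker Lyve1, whose protein guided the capture, had 9.64, 9.41 and 9.65 in tumour samples, against 3.21, 7.58 and 6.81 in healthy skin. Healthy-skin replicate 1 was thus below its background of 3.81 for the gene that defines the capture, and its Prox1 signal of 4.73 was the lowest of the 6 arrays. For that reason the leading differences are also given without it. The log2 difference between the 3′ and 5′ control probe sets of Gapdh, a measure of RNA integrity, ranged from 2.15 to 4.10 in tumour samples and from 2.77 to 3.72 in healthy skin. The same difference for Actb was smaller, from -0.63 to 0.60 in tumour samples and from -0.31 to 0.38 in healthy skin. The mean of 18 hybridization control probe sets ranged from 12.78 to 13.36 in tumour samples and from 12.33 to 13.01 in healthy skin.

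Cipc and Dbp were the members whose signal was clearly separated between the groups, and both had lower signal in the tumour samples. On the probe set Cipc 1424915_s_at, the signal was 3.54, 3.64 and 4.14 in the tumour samples, against 7.06, 7.33 and 7.06 in healthy skin. The 3 tumour samples sat just above their arrays' backgrounds and every healthy-skin sample was far above them. The difference, tumour minus healthy, was -3.38 with a limma standard error of 0.29, or 10.4-fold lower. Without healthy-skin replicate 1 it was -3.43.

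The brightest Cipc probe set, 1424913_at, had 5.49, 4.67 and 4.28 in tumour samples, against 6.17, 7.02 and 7.43 in healthy skin. The groups did not overlap, and the standard deviations were 0.62 in tumour samples and 0.64 in healthy skin (n = 3 each). Its difference was -2.06 (SE 0.46), or 4.18-fold lower, and -2.41 without healthy-skin replicate 1. The remaining probe set, 1424914_at, had 3.67, 3.31 and 4.02 in tumour samples, against 3.91, 3.46 and 4.23 in healthy skin. These values overlapped and lay close to background, with a difference of -0.20 (SE 0.33). The annotation assigns all 3 probe sets to the same cDNA clone, and the ending _s_at marks a set whose probes may match several transcripts.

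Dbp, the output transcription factor of the D-box genes, had 2 probe sets that were both lower in every tumour sample than in any healthy-skin sample. On 1438211_s_at the signal was 5.82, 7.00 and 5.58 in tumour samples, against 8.59, 8.02 and 8.54 in healthy skin. The difference was -2.25 (SE 0.44), or 4.76-fold lower, on a set that also ends in _s_at. On 1418174_at it was 5.23, 5.88 and 5.98 in tumour samples, against 6.61, 6.72 and 6.68 in healthy skin. Healthy-skin samples differed by little among themselves here (SD 0.05, n = 3) and tumour samples by more (SD 0.41, n = 3). The difference on 1418174_at was -0.97 (SE 0.30), or 1.96-fold lower. Without healthy-skin replicate 1 the difference on 1438211_s_at was -2.15. All 12 of these values were above background. Tumour replicate 2 had the highest Dbp signal of its group on 1438211_s_at.

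**Figure D1:**
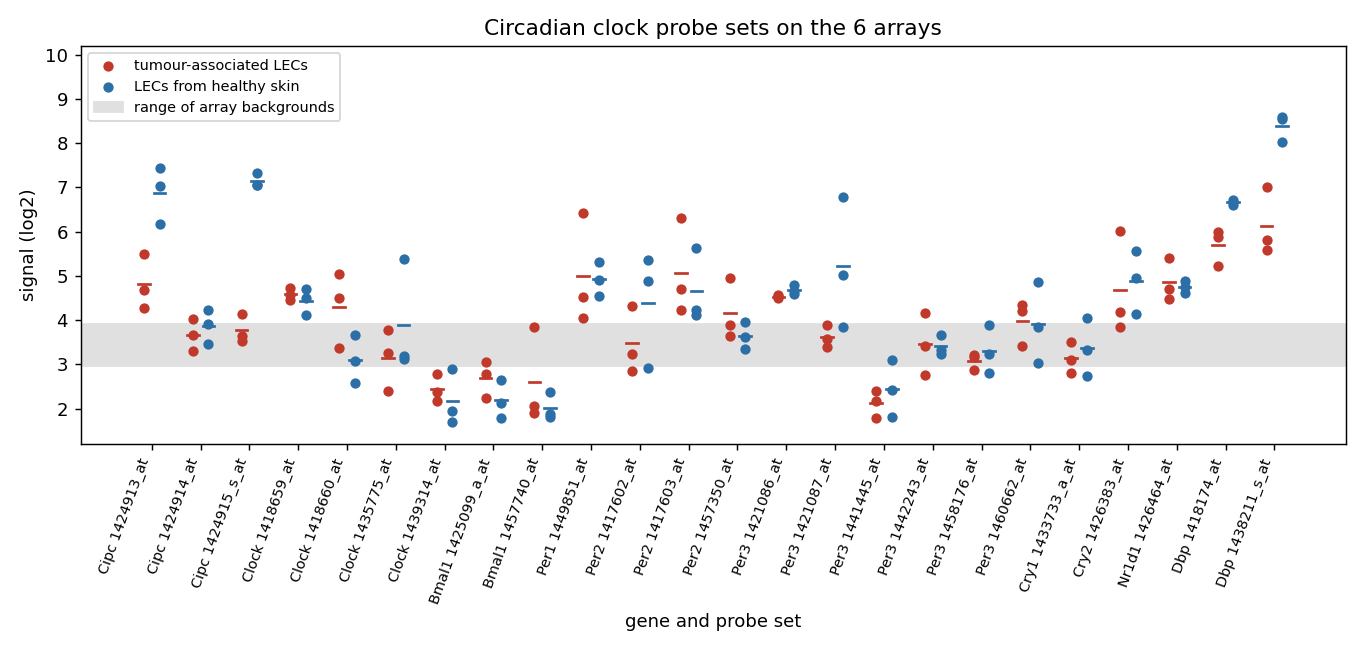
Signal (log2) of the 24 clock probe sets on each array, with tumour-associated LECs in red on the left and LECs from healthy skin in blue on the right of each position; points are arrays, short lines group means (n = 3) and the grey band the range of array backgrounds. The Cipc probe set 1424915_s_at averaged 3.77 in tumour samples and 7.15 in healthy skin, whereas both Bmal1 probe sets lay at or below the band on nearly all arrays.

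The activators Clock and Bmal1 showed little signal. Clock 1418659_at, the only Clock probe set above background on all arrays, had 4.46, 4.57 and 4.73 in tumour samples, against 4.11, 4.49 and 4.71 in healthy skin. The groups overlapped, and the difference was 0.15 (SE 0.28). Clock 1418660_at was not above background in any healthy-skin sample and was above it in 2 of the 3 tumour samples, with means of 4.31 ± 0.85 and 3.11 ± 0.55 (SD, n = 3 each) in tumour samples and healthy skin, at least 1.94-fold higher in the tumour samples when the healthy-skin values are set to the lowest signal measured above background. In the other direction, Clock 1435775_at was below background in every tumour sample and above it in 2 of 3 healthy-skin samples. The groups overlapped, and with tumour values set in the same way the tumour samples were 1.23-fold lower. That value rested on healthy-skin replicate 1, which had 5.38 against 3.19 and 3.12 in the other healthy-skin samples; the measured difference of -0.76 was -0.02 without it. Clock 1439314_at and Bmal1 1425099_a_at were below background on all 6 arrays, and Bmal1 1457740_at was above it only in tumour replicate 1 (3.84). A direction for Bmal1 therefore could not be measured at this signal.

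The repressors of the Per family had overlapping groups on all but 1 of their probe sets. Per1, a repressor that also responds quickly to stimuli, had 4.05, 6.43 and 4.53 in tumour samples, against 4.91, 4.55 and 5.31 in healthy skin. Tumour replicate 2 was the highest array and tumour replicate 1 the lowest, so that the mean difference was only 0.08 (SE 0.63). It was -0.63 without tumour replicate 2 and 0.56 without tumour replicate 1. Per2 1417603_at likewise had its highest value in tumour replicate 2, with 4.22, 6.30 and 4.70 in tumour samples, against 4.11, 4.22 and 5.64 in healthy skin. Its difference was 0.42 (SE 0.66), with -0.20 without tumour replicate 2 and 0.91 without healthy-skin replicate 3. The other Per2 probe sets differed in direction, with -0.92 (SE 0.71) on 1417602_at and 0.53 (SE 0.41) on 1457350_at. Single arrays moved both: 1417602_at gave -1.66 without healthy-skin replicate 1, -0.61 without tumour replicate 2 and -0.43 without healthy-skin replicate 3, and 1457350_at gave 0.14 without tumour replicate 3.

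Per3 was read by 6 probe sets whose differences ran from -1.60 to 0.08, with 4 negative and 2 positive. Per3 1421087_at had 3.38, 3.57 and 3.90 in tumour samples, against 3.85, 5.03 and 6.77 in healthy skin. Tumour samples were near background, healthy-skin samples were spread over about 3 log2 units, and the groups overlapped at healthy-skin replicate 1. The difference was -1.60 (SE 0.70), with -2.29 without that replicate and -0.82 without healthy-skin replicate 3, the highest of the 6 arrays. Per3 1421086_at did not overlap between groups, but all values lay close together, at 4.56, 4.53 and 4.49 in tumour samples, against 4.66, 4.58 and 4.78 in healthy skin. Its difference was -0.15 (SE 0.25). The other 4 Per3 probe sets had overlapping groups and differences between -0.32 and 0.08.

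The cryptochromes, which bind and block CLOCK and BMAL1 together with PER proteins, did not separate the groups. Cry2 had 3.85, 4.18 and 6.01 in tumour samples, against 4.96, 4.14 and 5.56 in healthy skin, a difference of -0.20 (SE 0.65) that ranged from -0.87 without tumour replicate 3 to 0.21 without tumour replicate 1. Tumour replicate 3 was the highest and tumour replicate 1 the lowest array. Cry1 was above background on 1 of 3 tumour samples and 2 of 3 healthy-skin samples, with 3.50, 3.11 and 2.80 in tumour samples, against 2.72, 4.05 and 3.33 in healthy skin. Nr1d1, the nuclear receptor REV-ERBα that represses Bmal1, had 4.47, 5.40 and 4.71 in tumour samples, against 4.61, 4.87 and 4.74 in healthy skin. The healthy-skin values fell inside the range of the tumour samples, and the difference was 0.12 (SE 0.33), or -0.15 without tumour replicate 2. That array had the highest signal for Per1, Per2 1417603_at and Nr1d1 among all 6. It also had the highest macrophage markers: the summed linear signal of 12 such genes was 7102 there, against 1515 and 1786 in the other tumour samples and 1524 to 1540.4 in healthy skin. The part of these markers in the values of tumour replicate 2 was not tested.

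Over the whole comparison, limma called 2 of 45037 probe sets at an adjusted p under 0.05 (0.00444%) and 0 of the 24 clock probe sets. At an unadjusted p under 0.05, limma counted 4 clock probe sets, all lower in tumour samples (2 each of Cipc and Dbp), where 6.36% of all probe sets passed in either direction, 3.53% as lower and 2.83% as higher. The groups did not overlap for 5 clock probe sets, again all lower in tumour samples (2 of Cipc, 2 of Dbp and Per3 1421086_at), where 11.1% of all probe sets did not overlap and 4.91% did so as lower. As the members were picked on this contrast, nothing is read from these counts. The median difference was -0.17 over the clock probe sets, 13 of them negative and 11 positive, and 0.06 over all probe sets. The median standard deviation between arrays of a group was 0.49 for clock probe sets in tumour samples and 0.49 in healthy skin, against 0.40 and 0.45 over all probe sets. Of the 24, 11 were above background on all arrays, 17 on at least 3, and 2 on none.

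**Figure D2:**
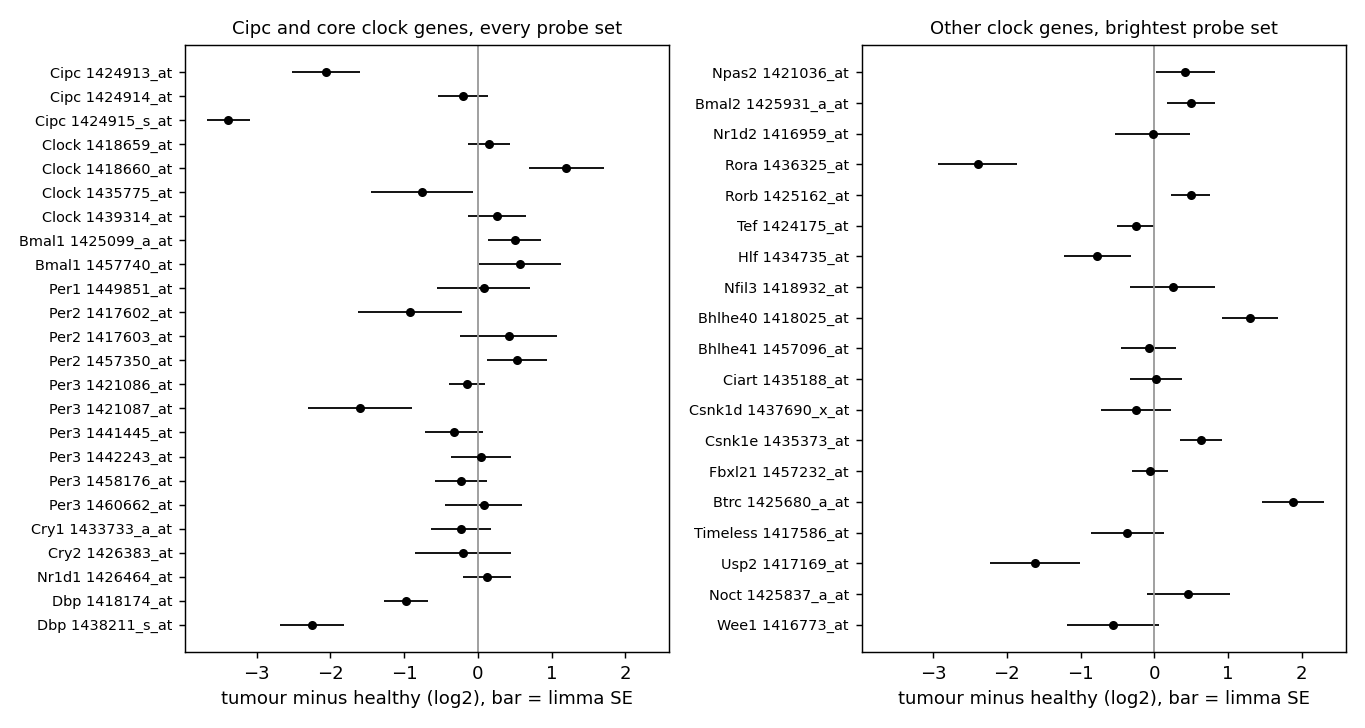
Differences in log2 signal, tumour minus healthy, for every probe set of Cipc and the core clock genes (left) and for the brightest probe set of 19 other clock genes (right); bars are limma standard errors (n = 3 arrays per group). Cipc 1424915_s_at (-3.38) and Dbp 1438211_s_at (-2.25) lie far below 0 on the left, and Rora (-2.40) and Btrc (1.88) are the farthest from 0 on the right.

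Other genes of the clock network were read from a list of 21, of which 19 were measured, each by its brightest probe set. None passed at a limma adjusted p under 0.05. At an unadjusted p under 0.05 there were 2 lower (Rora and Usp2) and 2 higher (Btrc and Bhlhe40) in tumour samples, where 3.53% of all probe sets were lower and 2.83% higher at that threshold. The list's median difference was -0.02, with 10 genes negative and 9 positive. The groups did not overlap for 6 genes, 2 lower and 4 higher, where 4.91% of all probe sets were lower and 6.22% higher without overlap.

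Rora encodes a nuclear receptor that activates Bmal1 through ROR elements, the opposite of NR1D1. Its brightest probe set, 1436325_at, had 4.72, 4.06 and 4.69 in tumour samples, against 5.79, 7.10 and 7.76 in healthy skin. Every tumour sample was below every healthy-skin sample, with a difference of -2.40 (SE 0.53, limma adjusted p = 0.50). The 9 Rora probe sets did not share a direction: 7 were negative and 2 positive, between -2.40 and 0.36. Nr1d2, the close relative of Nr1d1, had a difference of -0.02 on its brightest probe set and -1.80 on the other, where the groups did not overlap. On that other probe set only 1 tumour sample was above background, against 3 in healthy skin. Usp2, a deubiquitinase under clock control, had 2.88, 3.66 and 3.02 in tumour samples, against 4.54, 3.76 and 6.11 in healthy skin (difference -1.62, SE 0.61, limma adjusted p = 0.74). Only 1 tumour sample was above background on this probe set, against 3 in healthy skin. The other Usp2 probe set gave 0.01.

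Btrc encodes a substrate receptor of the ubiquitin ligase that marks PER proteins for breakdown. Its brightest probe set had 4.43, 5.70 and 4.94 in tumour samples, against 3.49, 3.26 and 2.68 in healthy skin. No healthy-skin sample was above background, so the tumour samples were at least 3.19-fold higher (limma adjusted p = 0.50). Of the 5 Btrc probe sets, 4 were positive and 1 was negative, and most were near background. Bhlhe40, a repressor that competes for E-boxes, had 5.20, 4.06 and 5.06 in tumour samples, against 3.55, 3.26 and 3.62 in healthy skin (difference 1.30, SE 0.38, limma adjusted p = 0.64). Only 1 healthy-skin sample was above background. Csnk1e, a kinase that phosphorylates PER proteins, differed by 0.63 (SE 0.29, limma adjusted p = 0.81); its other probe sets gave -0.22 and 1.43. Rorb was below background on all arrays and gives no fold, although its tumour values were all higher.

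The D-box factors related to Dbp did not show its separation on their brightest probe sets. Tef had 6.63, 6.88 and 6.77 in tumour samples, against 6.88, 7.04 and 7.11 in healthy skin, a difference of -0.25 (SE 0.25, limma adjusted p = 0.90). Hlf had 4.80, 4.24 and 4.71 in tumour samples, against 6.03, 5.59 and 4.45 in healthy skin, a difference of -0.78 (SE 0.45, limma adjusted p = 0.86). Nfil3, which represses through the same motif, differed by 0.25 (SE 0.58, limma adjusted p = 0.96). The difference between Dbp and these genes was not tested.

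Markers of other cells moved with the groups on the same arrays. Of 17 keratinocyte markers, 16 were lower in tumour samples, and none passed the adjusted threshold. For 11 of them the groups did not overlap, where 4.91% of all probe sets were lower without overlap. Their summed linear signal was 506 to 3567 in tumour samples, against 6184 to 8899.7 in healthy skin, and only Flg and Dsg1a were below background in every tumour sample. The markers' mean log2 signal was 5.72, 5.35 and 4.18 in tumour replicates 1, 2 and 3, against 6.95, 7.17 and 7.72 in healthy skin. Cipc 1424913_at had the same order of replicates in each group. The share of probe sets above background had this order too, at 48.4%, 46.6% and 39.6% in tumour replicates 1, 2 and 3. In healthy skin that share was 41.7%, 50.3% and 56.0%. What part array sensitivity has in the shared order was not tested. Cipc 1424915_s_at had another order, with tumour values close to background. Dbp 1438211_s_at differed from the keratinocyte order in both groups. The part of keratinocyte RNA in the Cipc and Dbp differences was not tested, and in captured tissue fewer cells of a type and less RNA per cell cannot be told apart.

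**Figure D3:**
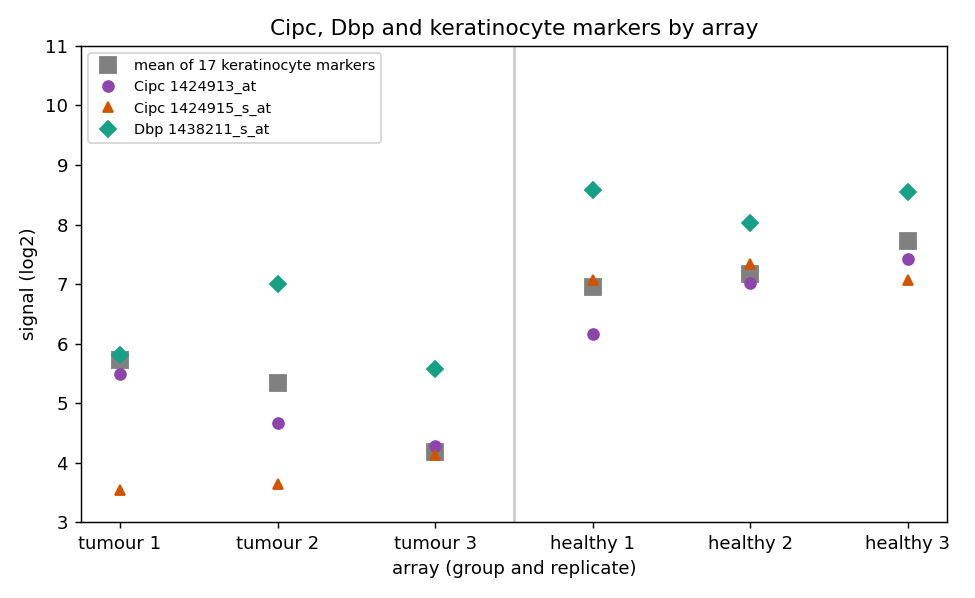
Signal (log2) on each array, tumour samples left of the grey line and healthy-skin samples right of it, for 2 Cipc probe sets, 1 Dbp probe set and the mean of 17 keratinocyte markers; each point is 1 array, and levels are to be compared along a symbol and not between symbols. The keratinocyte mean and Cipc 1424913_at share the order of replicates within each group, as does the share of probe sets above background (not plotted). Dbp 1438211_s_at has another order in both groups, and Cipc 1424915_s_at stays between 3.54 and 4.14 in tumour samples.

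The other marker lists had smaller or mixed differences. Of 10 measured LEC markers 8 were higher in tumour samples, with summed linear signals of 2491 to 2890.1 in tumour samples, against 736 to 1445 in healthy skin. All 12 pan-endothelial markers were higher, with 1063 to 1161 in tumour samples, against 381 to 439 in healthy skin. Of 12 macrophage markers 11 were higher, and Itgam was below background everywhere. Fibroblast markers were lower for 6 of 8, with 1323 to 15958 in tumour samples, against 8720.0 to 23649 in healthy skin. Adipocyte markers were lower for 3 of 7 and skeletal muscle markers for 1 of 7. The adipocyte markers Adipoq, Cidec and Pck1 and the muscle marker Myl1 were below background on every array. Groups did not overlap for 4 LEC, 7 pan-endothelial, 2 macrophage and 2 skeletal muscle markers, all higher, and 1 fibroblast marker, lower. Of all probe sets, 6.22% were higher and 4.91% lower without overlap.

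The genes whose profile over the 6 arrays was most like that of Cipc 1424913_at were found by the root mean square distance between profiles, each centred on its own mean, among 11491 genes above background. The nearest were D230025D16Rik (0.24 log2 units), Fgfbp1 (0.28), Psmc4 (0.28), C2cd2 (0.29) and Adam23 (0.30), against a median distance of 1.34. Fgfbp1 encodes a secreted protein that binds fibroblast growth factors, Psmc4 an ATPase subunit of the proteasome and Adam23 a membrane protein of the disintegrin family. Fgfbp1 had 5.11, 3.84 and 3.26 in tumour samples, against 5.97, 6.34 and 6.73 in healthy skin. C2cd2 had 5.23, 5.07 and 4.87 in tumour samples, against 6.55, 7.06 and 7.40 in healthy skin. Both repeat the order of the Cipc replicates in each group, as does Psmc4. The choice of genes by distance over these same arrays favours such a shared order, so nothing is read from it. Dbp ranked 331 by this measure, with a distance of 0.74.

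**Figure D4:**
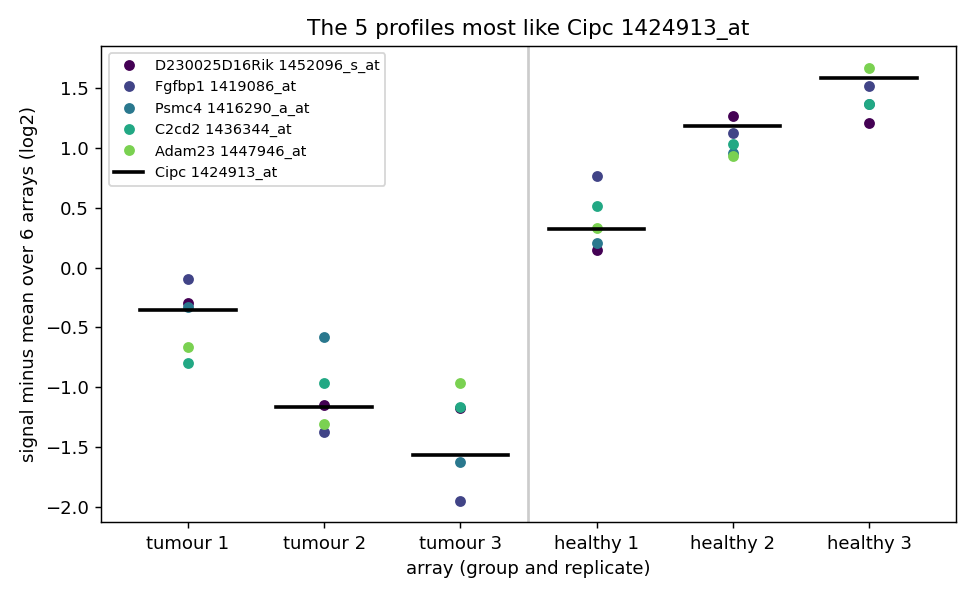
Signal minus the probe set's own mean over the 6 arrays (log2), tumour samples left of the grey line and healthy-skin samples right of it; black bars are Cipc 1424913_at and points the 5 genes with the smallest distance to it (0.24 to 0.30 log2 units). All tumour points lie below 0 and all healthy-skin points above it, which the choice by distance favours.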

How the data were processed

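LECs were profiled on 6 mouse arrays, 3 per group. The values the authors deposited are intensity on a linear scale. RMA, a method of background correction, quantile normalization and probe set summary, is named per the submitters' processing notes, with no version or filter stated. The highest value per array, between 14355.9 and 16997.9, shows that they are not on a log scale. Every column belonged to a sample.

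All signals were converted to log2 with neither pseudocount nor further scaling, 64 control probe sets were left out and no filter on dim probe sets was applied. The comparison of groups used lmFit and eBayes of limma 3.58.1 under R 4.3.3, two-sided and with 2.82 prior degrees of freedom, adjusted by Benjamini-Hochberg over all 45037 probe sets at a threshold of 0.05. Standard errors are limma's. The fit was tested on simulated data. Symbols came from the platform annotation (34945 probe sets with 1 symbol, 932 with several, 9160 with none).

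The members and lists were chosen with earlier results of these data known. Named were every member probe set, pathway genes whose groups did not overlap, the 5 profiles nearest to Cipc, and Lyve1, Prox1 and Krt10; Tef, Hlf, Nfil3, Nr1d2 and the markers below background were added after their values were seen. Krt10 itself had 6.37, 3.94 and 3.92 in tumour samples, against 9.14, 9.55 and 10.28 in healthy skin. The number of arrays limits the precision, and signal over background takes the place of depth. Alternatives were quantile normalization, centring on array medians, a filter on dim probe sets, a replicate block, eBayes with trend and robust options, means over probe sets and each array left out.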

Additional observations from a re-analysis of the deposited data

How the results depend on the processing

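The count of clock probe sets past the limma adjusted threshold was 0 in 10 of 11 alternatives and 1, Cipc 1424915_s_at, when only the 22179 probe sets above background on at least 3 arrays were tested; that fit called 21 probe sets in all and tests fewer probe sets. The number called over all probe sets was 2, and became 0 after centring on array medians and 1 with trend and robust options. With each array left out in turn it ranged from 0 to 23; it was 23 without tumour replicate 2 and 0 without any other array. The cause was not tested. With the replicate block it was 0, and the members and pathway genes called stayed at 0. Same-numbered arrays share only a number: their deviations from the group means correlated at 0.04, 0.10 and -0.01, and tumour replicate 3 correlated best with healthy-skin replicate 1 (0.12). No pathway gene was called under any of 12 alternatives. The difference of Cipc 1424913_at ranged from -2.41 to -1.78 with an array left out, and was -1.94 after quantile normalization, -2.10 after centring and -1.88 as the mean over the Cipc probe sets. Both Dbp probe sets and all Cipc probe sets kept their sign under quantile normalization, centring and each array left out. Between 0 and 5 other clock probe sets changed sign under any of these, the most without tumour replicate 2. Signal limits Bmal1, Cry1 and most Clock and Per3 probe sets, which lie near background.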
